A study of Drosophila melanogaster with 4 samples.

Results

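The age difference shared by 2 diets was described in whole-fly RNA of the Canton-S wild-type strain of Drosophila melanogaster. It was the mean of the 2 arrays of old flies minus the mean of the 2 arrays of young flies on the log2 scale, with the diet kept as a block. A probe set, a group of short probes that together measure a transcript, was used if it named exactly 1 gene and read log2 5 (32 signal units) or above on at least 2 of the 4 arrays. This left 9124 of the 18769 probe sets, for 8627 of the 11981 genes that have a single-gene probe set. The old flies were 40 days old and kept on food with 0 or 100 µM curcumin, a plant polyphenol from turmeric, and the young flies were 1 to 3 days old on the same 2 foods. The labels give 30 males and 30 females per pool, and each combination of age and diet had 1 array. The design sets age against feeding with curcumin. The 2 diets share no array, so the age difference in one repeats that in the other on separate pools, although time on the adult food also differed between the ages.

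Adult flies live mainly on tissues that no longer divide, and ageing in them is known for loss of flight ability, changes in the gut epithelium and chronic immune activity. Flight muscle is packed with mitochondria, in which the respiratory chain oxidises the products of the tricarboxylic acid (TCA) cycle to make ATP. The midgut secretes proteases and sugar-splitting enzymes, and haemocytes, the blood cells, engulf microbes through scavenger receptors. In bulk RNA, fewer cells of a type and less RNA per cell cannot be told apart.

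The arrays had 2% trimmed mean signals of 151 and 151 for old flies and 149 and 139 for young flies, in each case without and then with curcumin, the order kept below. Precision is limited by having 4 arrays. The markers did not match the labelled mixture of sexes. The yolk protein genes Yp1 and Yp2, of the female fat body, were below the floor of 32 on all 4 arrays, as were all 7 measured markers of ovary and eggshell. These 7 summed to 47.3 and 34.1 signal units in old flies and 30.0 and 32.8 in young flies. Yp3, the other yolk protein gene, read 49.1 and 58.2 in old flies and 44.0 and 54.4 in young flies. Male accessory gland markers summed to 16464 and 26446 in old flies and 29939 and 26196 in young flies. Of 7 testis markers, aly and can were below the floor on all 4 arrays. The testis marker dj was near it, at 32.5 and 33.4 in old flies and 26.0 and 43.2 in young flies. Mst87F, Mst84Da, Mst84Db and Mst84Dc were well above it. Female markers were thus near or below the floor at both ages, and accessory gland markers were far above it on all 4 arrays.

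**Figure D1:**
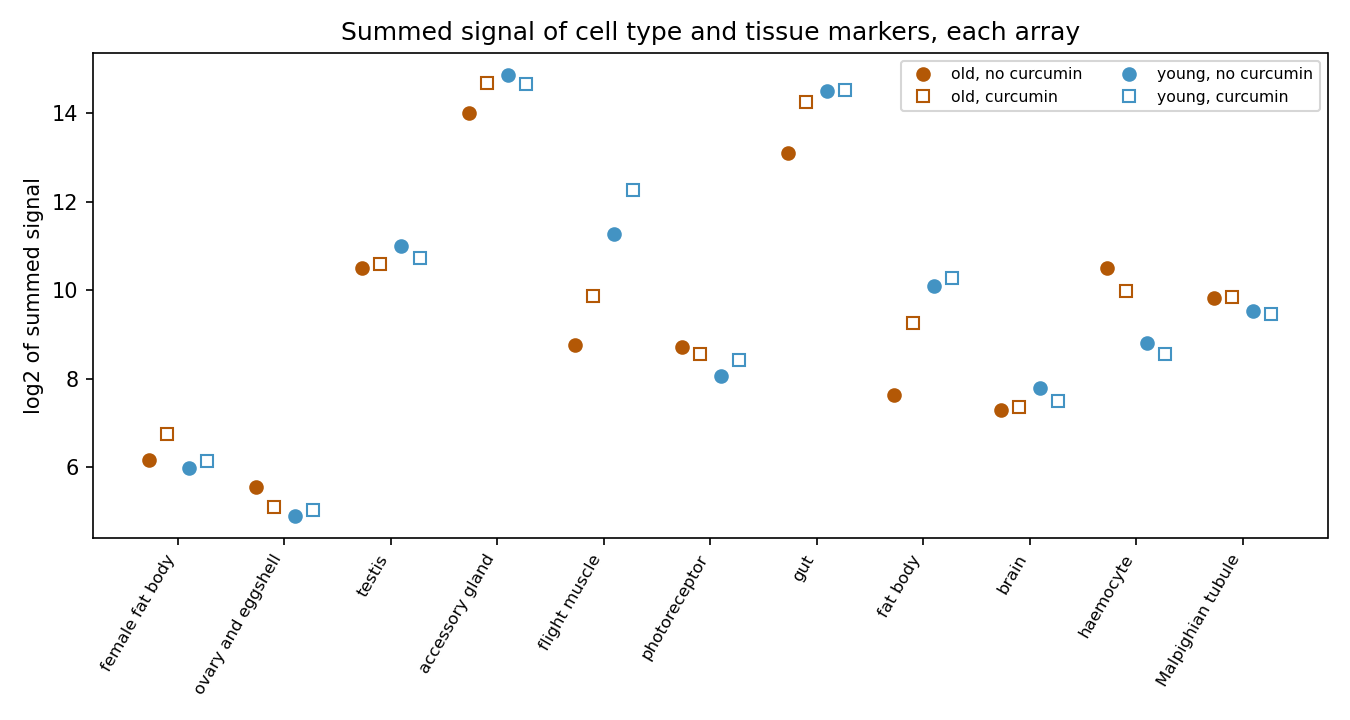
Log2 of the summed signal of marker genes for 11 cell types or tissues on each array, with old flies (brown) left of young flies (blue), filled circles without and open squares with curcumin. Ovary and eggshell markers sum to at most 47.3. Sums of flight muscle, gut, testis and brain markers are lower on both old arrays than on both young arrays. So is the fat body sum, in which Lsp2 is the only marker above the floor. Single markers can overlap between the ages, as Mal-A1 of the gut and Mst87F of the testis do. The brain sum holds elav and brp, and brp is near or below the floor. Haemocyte and Malpighian tubule sums are higher on both old arrays, as is trp, the only photoreceptor marker measured.

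No probe set passed the test across all probe sets. limma, which fits the same model to every probe set and shares their spread, gave 0 probe sets with a Benjamini-Hochberg adjusted p below 0.05 (0.0%). Its lowest adjusted p was 0.101, reached by 36 probe sets. An unadjusted p below 0.05 was found for 2314 probe sets (25.4%), with 1498 (16.4%) above and 816 (8.94%) below young flies, against 456.2 in all by chance. All single-gene differences below are therefore given as values that did not pass the adjusted test. An exact two-sided permutation test of 2 old against 2 young arrays cannot give a p below 0.333.

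The 2 diets agreed in direction for most larger differences. Of 9124 probe sets, 163 (1.79%) were higher by 2-fold or more in old flies in both diets, 102 (1.12%) were lower by that much in both, and 0 (0.0%) were at least 2-fold apart in opposite directions. The 163 were 39.5% of those at least 2-fold higher without curcumin (413, 4.53%) and 44.1% of those with curcumin (370, 4.06%). The 102 were 13.7% of those at least 2-fold lower without curcumin (744, 8.15%) and 67.1% of those with it (152, 1.67%). The higher probe sets had medians of 1.33 without and 1.36 with curcumin, and the lower ones -2.22 without and -1.56 with curcumin, values that the 2-fold rule itself shapes. The diets lay within 1.5-fold of each other for 132 of the 163 and for 54 of the 102, and 72 of the 102 were further apart between the ages without curcumin. The direction was the same in both diets for 43.4% of probe sets with a mean difference under 0.25 in size, 86.8% at 0.25 to 0.5, 96.0% at 0.5 to 1 and 99.2% at 1 to 2. Any size counted, the direction was shared by 3930 probe sets that were higher (43.1%) and 2647 that were lower (29.0%) in old flies. A mean over both diets is large more readily when both agree, so these shares are a description.

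**Figure D2:**
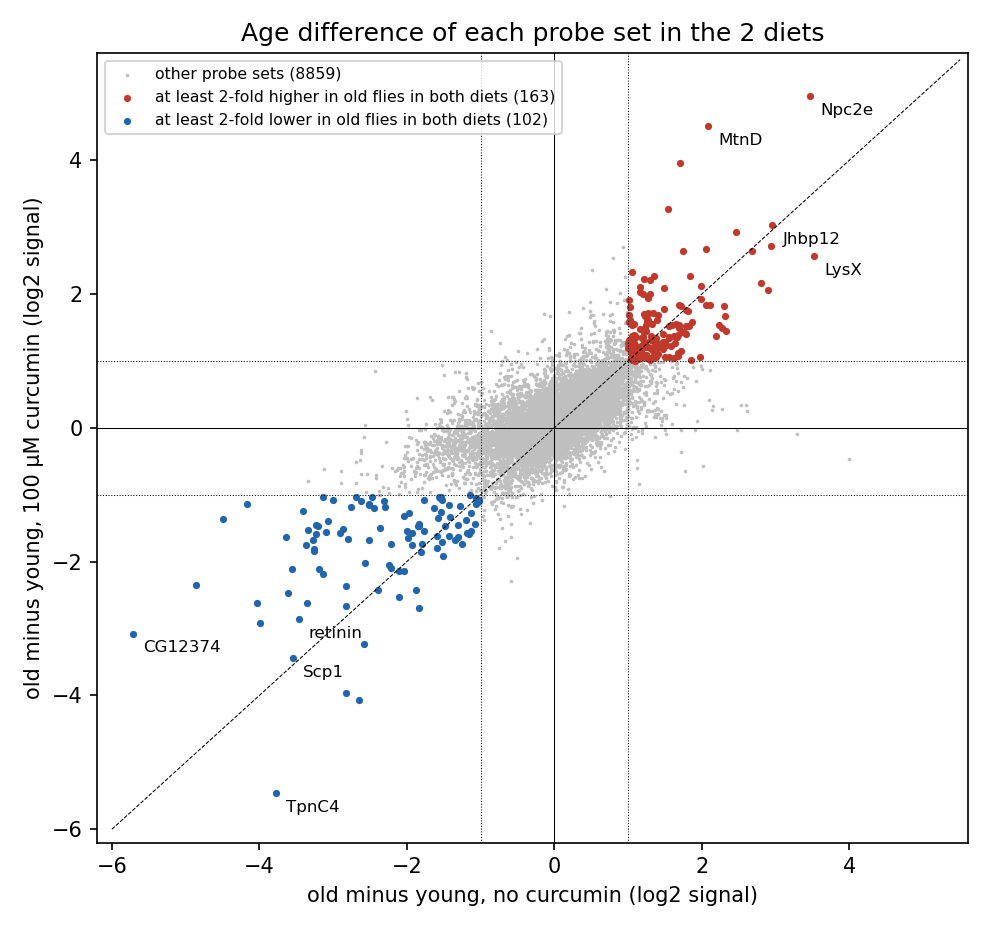
Old minus young log2 signal of 9124 probe sets without curcumin (horizontal) and with curcumin (vertical); dotted lines mark 2-fold and the dashed line equality. The 163 probe sets higher (red) and 102 lower (blue) in both diets fill opposite corners, and the 2 other corners are empty.

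The balance of higher to lower genes depended on scaling. Higher probe sets were 61.5% of those at least 2-fold apart in both diets on the deposited scale, 49.0% after rescaling to a common trimmed mean, 46.6% after centring on array medians and 47.8% after quantile normalization. On the mean over diets, 317 were at least 2-fold higher (3.47%) and 273 lower (2.99%), so 53.7% were higher, against 43.4%, 39.9% and 43.2% under the same 3 scalings. The median of all probe sets was 0.07 as deposited and -0.02 after centring. Differences near this size carry no direction here.

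Genes measured on all 4 arrays were ordered by the smaller of their differences in the 2 diets, and the highest had varied roles, with 7 of the 15 known by a CG number only. Npc2e, of a family of sterol-binding proteins, read 2241 and 1564 in old flies, against 203 and 50.3 in young flies. Its mean log2 difference was 4.21 (SE 0.40), with a limma adjusted p of 0.101. Both old arrays were far above both young ones. Jhbp12, of a family of juvenile hormone-binding proteins, read 5357 and 3367 in old flies, against 692 and 412 in young flies (2.99, SE 0.17). The acetylcholine receptor subunit gene nAChRbeta3 read 1517 and 850 in old flies, against 199 and 129 in young flies (2.83, SE 0.17). In both genes the old arrays were lower with curcumin than without it, and so were the young arrays, so the age difference was similar in size on the 2 foods. LysX, a lysozyme gene, read 745 and 481 in old flies, against 65.1 and 81.5 in young flies (3.04, SE 0.29). The maltase gene Mal-B1 read 420 and 357 in old flies, against 60.2 and 80.0 in young flies (2.48, SE 0.23). The other genes of the 15 highest were CG7381, CG2111, MtnD, CG7017, Sr-CI, scb, CG13313, CG44774, CG32984 and CG18530, with mean log2 differences from 1.94 for CG44774 to 3.29 for MtnD.

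The lowest genes by the same measure included several of muscle. TpnC4, a flight muscle form of troponin C, which binds calcium to start contraction, read 35.4 and 38.4 in old flies, against 485 and 1686 in young flies. Its mean log2 difference was -4.62 (SE 0.44), with a limma adjusted p of 0.101, and the old arrays lay just above the floor. Scp1, a sarcoplasmic calcium-binding protein gene, read 394 and 687 in old flies, against 4604 and 7479 in young flies (-3.50, SE 0.17). Signals of Scp1 were higher with curcumin than without it at both ages, and the age difference was 11.7-fold without and 10.9-fold with curcumin. Nplp3, a neuropeptide-like precursor gene, read 85.2 and 357 in old flies, against 1359 and 2715 in young flies (-3.46, SE 0.31). The corneal lens gene retinin read 110 and 321 in old flies, against 1219 and 2333 in young flies (-3.16, SE 0.22). The groups did not overlap in either gene, and the old array without curcumin was the lowest in both. Fhos, a formin that organises actin in muscle, read 186 and 277 in old flies, against 803 and 1220 in young flies (-2.12, SE 0.17). The others of the 15 lowest were CG12374, CG7203, CG12057, CG18180, CG7409, Jon65Aii, TpnC41C, CG13947, CG33290 and Act79B, with mean differences from -4.40 for CG12374 to -2.31 for Act79B.

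**Figure D3:**
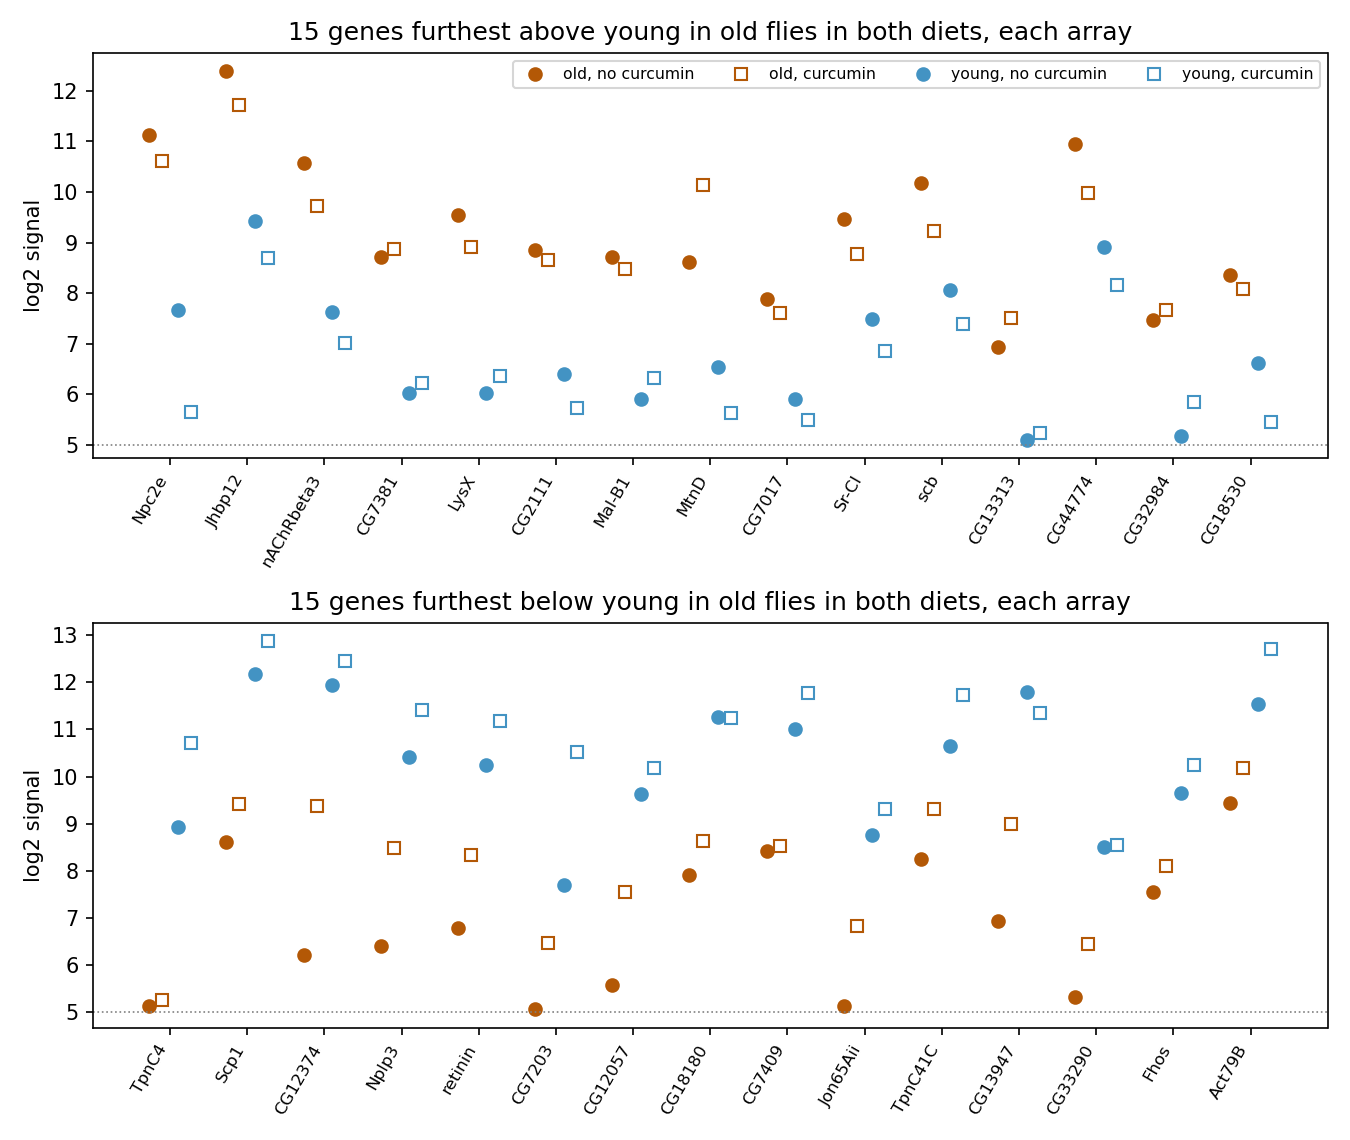
Log2 signal on each array for the 15 genes furthest above (top) and the 15 furthest below (bottom) young flies in old flies in both diets, with old arrays (brown) left of young arrays (blue), filled circles without and open squares with curcumin, and the floor at log2 5 dotted. No old array overlaps a young array of the same gene.

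Some genes could only be bounded, because both arrays of an age were below the floor. CG16995 was at least 4.96-fold higher without and at least 3.18-fold higher with curcumin in old flies. Pvf2, a growth factor of the PDGF and VEGF family, had lower bounds of 4.71-fold on food without curcumin and 2.89-fold on food with it. The bounds of CG31036, CG6933 and Ac78C were 2.31-fold to 3.44-fold higher. In the other direction, the bounds for CG17192 were 7.07-fold lower without and 15.6-fold lower with curcumin, and those for CG18179 were 4.66-fold and 4.26-fold. ninaD, a scavenger receptor that takes up carotenoids for visual pigment, had bounds of 3.58-fold lower without and 6.47-fold lower with curcumin. CG31266 and CG15617 were bounded at 2.18-fold to 3.19-fold lower.

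Signals of the respiratory chain were lower in old flies in both diets by a modest amount across nearly the whole list. Of 74 probe sets for 67 genes, 74 had a negative mean difference, and both old arrays were below both young arrays for 68, against 25.3% of all probe sets tested. The list median was -0.76, with -0.68 without and -0.77 with curcumin, beside 0.07 over all probe sets. On the deposited scale 2 probe sets were at least 2-fold lower in both diets (1.12% of all were). That number was 5 after rescaling, 5 after centring and 6 after quantile normalization. The adjusted limma test was passed by 0, while 52 were lower with an unadjusted limma p below 0.05, beside 8.94% of all probe sets. COX7AL2, a copy of a cytochrome c oxidase subunit gene, read 888 and 1803 in old flies, against 3373 and 5353 in young flies (-1.75, SE 0.19). ND-B8, a complex I subunit gene, read 81.1 and 117 in old flies, against 201 and 364 in young flies (-1.47, SE 0.18). ND-19, also of complex I, had a mean difference of -1.14 (SE 0.19). In these 3 genes both old arrays were below both young arrays.

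Duplicate copies and standard copies of respiratory subunits differed in how the diets compared. The 57 probe sets of standard copies had a median of -0.62 without and -0.85 with curcumin, and 52 of them had both old arrays below both young, beside 25.3% of all probe sets. The 17 of duplicate copies, taken as those whose symbols end in L or in L and a digit, had -1.29 without and -0.32 with curcumin. Of these, 16 of 17 had both old arrays below. The split rests on the symbol alone, so a standard subunit with such a name would count as a duplicate. This split was made after seeing the data, and the difference between the copies was not tested. Many such duplicates are known in flies for expression in testis. Testis markers summed to 1464 and 1557 in old flies and 2058 and 1713 in young flies, and their part in the result was not tested.

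Other steps of energy metabolism were lower too. The TCA cycle had 12 of 12 probe sets with both old arrays below both young, beside 25.3% of all, and a median of -0.56 (-0.60 without and -0.56 with curcumin). mAcon1, a mitochondrial aconitase gene, read 2529 and 3191 in old flies, against 4888 and 5743 in young flies (-0.90, SE 0.17). The isocitrate dehydrogenase subunit genes Idh3a, Idh3b and Idh3g had mean differences of -0.89, -0.76 and -0.71. Each of these 4 genes was under 2-fold on the mean. At least 2-fold lower in both diets were 0 TCA cycle probe sets, beside 1.12% of all. Glycolysis had 13 of 17 below and 2 above, beside 25.3% and 35.8% of all, with a median of -0.34. Pgk, phosphoglycerate kinase, read 947 and 1249 in old flies, against 1618 and 2590 in young flies (-0.91, SE 0.18), whereas Treh, trehalase, read 1288 and 1245 in old flies, against 1084 and 871 in young flies (0.38, SE 0.18). Gpdh1 had 4 probe sets that disagreed in direction, at -1.37, -0.79, -0.51 and 0.32. Beside the same shares, mitochondrial ribosome genes had 33 of 71 below and a median of -0.15, and cytosolic ribosome genes 17 of 37 below and a median of -0.06.

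Muscle genes held the lowest single value, of TpnC4, and many other lower ones. Of 38 probe sets for 27 genes, 12 were at least 2-fold lower in both diets, beside 1.12% of all probe sets. Both old arrays were below both young for 29, beside 25.3% of all. The median was -0.78, with -0.65 without and -0.90 with curcumin, and -0.48 when the young array with curcumin was left out. TpnC41C, another troponin C gene, read 305 and 632 in old flies, against 1599 and 3379 in young flies (-2.40, SE 0.17). Act79B, an actin gene of tubular muscle, read 694 and 1158 in old flies, against 2987 and 6657 in young flies (-2.31, SE 0.20). Old arrays were lowest without curcumin and young arrays highest with it in both genes. Flight muscle markers, of which TpnC4, fln and Act88F were measured and are also in the list, summed to 433 and 932 in old flies and 2490 and 4942 in young flies, and their part in the result was not tested. Probe sets of one muscle gene could differ: the titin-like gene sls had -1.64, -1.07 and 0.36, and the calcium pump gene SERCA -2.60, -1.62 and -0.93. Strn-Mlck, a myosin light chain kinase gene, had 0.31 in its brightest probe set and -0.98 in the other.

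**Figure D4:**
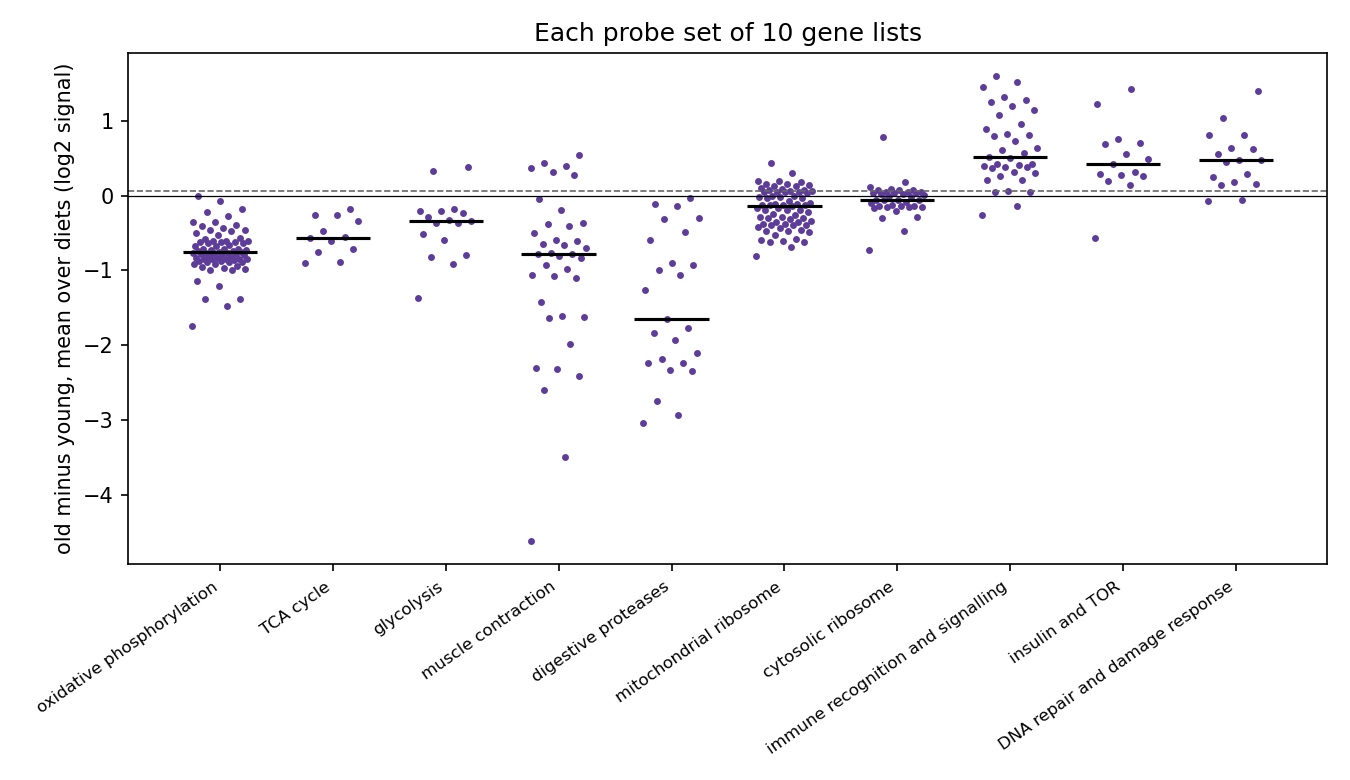
Old minus young log2 signal, mean over both diets, of each probe set in 10 gene lists, with black bars at list medians and a dashed line at the median of all probe sets tested (0.07). Respiratory chain probe sets cluster around -0.76, muscle and protease probe sets spread to -4.62 and -3.04, and cytosolic ribosome probe sets lie close to 0.

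Digestive enzymes were lower as a group. All 25 protease probe sets had a negative mean difference, 14 were at least 2-fold lower in both diets, beside 1.12% of all, and both old arrays were below both young for 20, beside 25.3%. The median was -1.65, with -1.95 without and -1.16 with curcumin, and -1.07 when the old array lacking curcumin was left out. Jon65Aii, a serine protease gene of the gut, read 35.2 and 114 in old flies, against 432 and 632 in young flies (-3.04, SE 0.33). The trypsin gene thetaTry read 72.0 and 307 in old flies, against 542 and 915 in young flies (-2.24, SE 0.37). Both genes were lowest in old flies without curcumin. Jon44E and iotaTry were below the floor on that array, and their mean differences of -2.74 and -2.10 are bounds. Protease genes are near-identical copies in places, so signal can be shared between them.

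Enzymes of sugar and starch digestion were mixed. Of 17 probe sets 5 were lower by 2-fold or more in both diets and 1 was higher, beside 1.12% and 1.79% of all. The median was -0.60, with -0.36 without the old array lacking curcumin and -1.24 without the old array with it. LManV and LManVI, mannosidase genes, had mean differences of -2.48 and -2.42, and the amylase-related gene Amyrel -2.43. Mal-A7, a maltase gene, read 302 and 1493 in old flies, against 3202 and 3552 in young flies (-2.33, SE 0.55). The old array with curcumin lay nearer to the young arrays than the old array without it. Both old arrays were above both young for 3 members, namely Mal-B1, given above and past 2-fold, Mal-B2, with 0.52 (SE 0.20), and LManII, with 0.18 (SE 0.17). Gut markers, which share protease genes with these lists, summed to 8831 and 19651 in old flies and 23234 and 23510 in young flies, and their part was not tested. mag, a lipase gene of the gut, read 96.9 and 377 in old flies, against 1145 and 1620 in young flies (-2.83, SE 0.39), while the list of lipases and lipid storage had a median of 0.00 whose sign turned on rescaling, centring and quantile normalization.

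Cuticle and odorant-binding genes were more often below than above, and peritrophic matrix and chitin genes more often above, set beside 25.3% of all probe sets below and 35.8% above. Cuticle proteins had 12 of 19 probe sets below and 4 above, with a median of -0.47. Of the 19, 3 were at least 2-fold lower in both diets, beside 1.12% of all. Cpr49Ae read 78.8 and 112 in old flies, against 276 and 405 in young flies (-1.83, SE 0.17). Cpr62Bc had -1.72, and Cpr47Ef had a bound of -1.66. Only 19 of 114 cuticle probe sets on the array passed the filter on low values, and a gene could pass through the age at which it was high. Odorant-binding proteins had 17 of 28 below and 1 above, with a median of -0.41 (-0.68 without and -0.12 with curcumin), and of -0.14 without the old array lacking curcumin. Obp57b read 118 and 159 in old flies, against 274 and 283 in young flies (-1.02, SE 0.19). Peritrophic matrix and chitin genes had 15 of 27 above and 7 below, with a median of 0.29. Idgf2, a chitinase-like growth factor gene, read 3319 and 2323 in old flies, against 1538 and 1245 in young flies (1.00, SE 0.17). Peritrophin-15a, of the lining of the gut, was lower, with -1.30 (SE 0.21), and obst-A had a bound of -1.49.

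Immune recognition and signalling genes were mostly higher in old flies. Of 37 probe sets 35 had a positive mean difference, both old arrays were above both young for 24, against 35.8% of all probe sets, and 0 had both old arrays below. The median was 0.51, with 0.75 without and 0.27 with curcumin. It was 0.22 without the old array lacking curcumin and 0.87 without the old array with it. As deposited 3 probe sets were at least 2-fold higher in both diets, beside 1.79% of all, and 2 after each of the 3 scalings. Tep3, a thioester-containing protein gene that marks microbes, read 434 and 355 in old flies, against 173 and 143 in young flies (1.32, SE 0.17). PGRP-LB, an enzyme that degrades bacterial peptidoglycan and so dampens signalling, read 520 and 245 in old flies, against 167 and 102 in young flies (1.45, SE 0.19). The phagocytosis receptor gene NimC1 read 391 and 239 in old flies, against 99.2 and 115 in young flies (1.52, SE 0.28). All 3 were highest in old flies without curcumin. pirk, an inhibitor of the Imd pathway, had 1.20 (SE 0.20). Outside the list, the scavenger receptor gene Sr-CI read 710 and 435 in old flies, against 180 and 115 in young flies (1.95, SE 0.17), and scb, an integrin gene, read 1152 and 596 in old flies, against 266 and 166 in young flies (1.98, SE 0.18). The haemocyte markers Hml, NimC1 and Sr-CI summed to 1445 and 1010 in old flies and 452 and 377 in young flies, with all 3 above the floor on every array, and their part in the result was not tested.

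Antimicrobial peptides had age differences that varied with the diet. Their median was 2.01 without and -0.57 with curcumin. As deposited 0 of 11 were at least 2-fold apart the same way in both diets, beside 1.79% higher and 1.12% lower of all probe sets. After rescaling and after centring 2 were lower by that much. Both old arrays were above both young for 1, beside 35.8% of all. They were below for 3 (27.3%), close to the 25.3% of all. Without the old array on food lacking curcumin the median was -0.59, in place of 1.22. Def, a defensin gene, read 808 and 127 in old flies, against 201 and 68.9 in young flies, so the groups overlapped. The 3 below were Anp, Drsl4 and Drsl5, with mean differences of -1.68, -1.61 and -1.35. With curcumin, Anp and Drsl4 were just short of 2-fold, at -0.999 and -0.983. Anp encodes a peptide of the male ejaculatory duct.

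Genes of metal handling included some that were higher and some that were not. Metallothioneins, small proteins that bind copper, zinc and cadmium, had a median of 1.57 over 4 genes. Of these, 2 were at least 2-fold higher in both diets, beside 1.79% of all probe sets. MtnD read 393 and 1125 in old flies, against 93.1 and 49.5 in young flies (3.29, SE 0.62). MtnB read 167 and 562 in old flies, against 51.2 and 36.2 in young flies (2.83, SE 0.58). In both genes the old array with curcumin was the highest and the young array with curcumin the lowest. MtnA, the brightest member, read 8306 and 8017 in old flies, against 7353 and 5864 in young flies (0.31, SE 0.18). MtnC read 267 and 760.3 in old flies, against 485 and 280.3 in young flies, so its groups overlapped, and it was lower without and higher with curcumin. The median of the 4 was 2.38 without the old array lacking curcumin. Metal transport and iron storage genes had 12 of 24 above and 3 below, beside 35.8% and 25.3% of all probe sets. Their median was 0.48, and 0.17 without the old array lacking curcumin. As deposited 1 was at least 2-fold higher in both diets, beside 1.79% of all, and 0 were after each of the 3 scalings. Mvl, a transporter of manganese and iron, read 324 and 238 in old flies, against 123 and 111 in young flies (1.25, SE 0.18). Tsf2, a transferrin gene, had 1.20 (SE 0.20). The 3 below were the copper chaperone gene Atox1, the copper transporter gene Ctr1C and the ferritin gene Fer3HCH, with -0.48, a bound of -0.78 and -0.25.

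Members of the sterol-binding and hormone-binding families went both ways. Of 8 NPC genes, Npc2e was at least 2-fold higher and Npc2d at least 2-fold lower in both diets, and the median was -0.45. Of all probe sets 1.79% were higher and 1.12% lower by that much in both diets. Npc2d read 71.0 and 234 in old flies, against 279 and 568 in young flies (-1.63, SE 0.24). The juvenile hormone-binding genes Jhbp12 and Jhbp3 had 2.99 and -0.99 (SE 0.17 and 0.20), and the list median of -0.15 turned to 0.05 with quantile normalization. Kr-h1, a transcription factor that responds to juvenile hormone, had 0.77 (SE 0.17).

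Detoxification genes included several that were higher in both diets. Of 66 cytochrome P450 probe sets 6 were higher and 0 lower by 2-fold or more in both diets, and both old arrays were above both young for 31 and below for 11, with a median of 0.12. Of all probe sets 1.79% were higher by that much in both diets, 35.8% were above and 25.3% below. After each of the 3 scalings 4 were higher by 2-fold or more in both diets, and without the old array lacking curcumin the median was 0.21. Cyp6a13 read 2133 and 1610 in old flies, against 660.5 and 572 in young flies (1.59, SE 0.17). Cyp312a1 read 4767 and 5644 in old flies, against 1868 and 1167 in young flies (1.81, SE 0.28). The groups were apart in both genes, and Cyp6a16 and Cyp6d2 had 1.45 and 1.32. Cyp6a20 was lower, with -0.89 (SE 0.17). Beside the same shares, UDP-glycosyltransferases, which attach sugars to lipophilic compounds, had 12 of 25 above and 2 below, with a median of 0.27 (0.01 without and 0.67 with curcumin), which was 0.04 without the old array with curcumin and 0.63 without the old array lacking it. Ugt302K1 read 88.3 and 102 in old flies, against 37.6 and 36.3 in young flies (1.36, SE 0.18). Ugt37C2 had a bound of 2.48, since the young array with curcumin was below the floor. Glutathione transferases had 0 of 32 at least 2-fold apart in both diets and a median of 0.06 that turned negative on rescaling and centring. GstD2 and GstE1 were the highest of them by the smaller difference, with 1.04 and 1.25 (SE 0.18 and 0.24). Antioxidant enzymes had 7 of 21 above and 8 below.

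Genes of insulin and TOR signalling, which couples nutrients to growth, were mostly higher. Both old arrays were above both young for 12 of 15 and below for 1, beside 35.8% and 25.3% of all probe sets, with a median of 0.42. The number above was 12, 11 and 9 after rescaling, centring and quantile normalization, where 31.4%, 30.4% and 32.2% of all probe sets were. InR, the insulin receptor gene, read 528 and 239 in old flies, against 146 and 119 in young flies (1.43, SE 0.27). The kinase gene Akt, downstream of the receptor, read 645 and 337 in old flies, against 233 and 171 in young flies (1.23, SE 0.21). Both were highest in old flies without curcumin, and the old array with curcumin still exceeded both young arrays. InR, at 1.01 with curcumin, was the 1 member past 2-fold in both diets as deposited, beside 1.79% of all probe sets higher. After each of the 3 scalings 0 members were. The list median was 0.27 without the old array lacking curcumin and 0.64 without the old array with it. The inhibitor of TOR gig, also called Tsc2, had 0.68 (SE 0.17), the TOR-regulated factor REPTOR 0.75 (SE 0.17), and the insulin-like peptide gene Ilp5 was lower, with -0.56 (SE 0.18).

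Genes known to affect fly lifespan had smaller differences. As deposited 1 of 33 probe sets, of InR, was at least 2-fold higher in both diets, beside 1.79% of all. It was 0 of them after each of the 3 scalings. Both old arrays were above both young for 21 and below for 3, beside 35.8% and 25.3% of all probe sets, and the median was 0.28. loco, a regulator of G protein signalling, had 0.85 (SE 0.22), Keap1, the inhibitor of the oxidative stress factor encoded by cnc, had 0.75 (SE 0.18) and cnc itself 0.17 (SE 0.17). The insulin antagonist ImpL2 had 0.70, the JNK phosphatase gene puc 0.67, EcR, the ecdysone receptor gene, 0.63, magu 0.62, HDAC1 0.60 and p53 0.56. The insulin receptor substrate chico had 0.42 and foxo, the factor restrained by insulin signalling, 0.31. mth, a G protein-coupled receptor gene, had a bound of 0.45. Indy, fwe, S6k, hep, Gclc, bsk and Sesn lay between 0.19 for Sesn and 0.31 for Indy, with SEs of 0.17 to 0.19, and the groups of hep overlapped. hep had another probe set at 0.96, while bsk and fwe each had another with a negative difference, of -0.19 and -0.05. Sod2, the mitochondrial superoxide dismutase gene, read 878 and 1075 in old flies, against 1278 and 1723 in young flies (-0.61, SE 0.17). Pepck1 had -0.46 and Hsp68 -0.42. Sirt1, Atg8a, Cat, Gclm, ND-SGDH and sun had overlapping groups and differences from -0.17 to 0.09, which also turned sign in other settings.

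DNA repair genes were higher by small amounts. Both old arrays were above both young for 14 of 17 and below for 1, beside 35.8% and 25.3% of all probe sets, with a median of 0.48 (0.39 without and 0.44 with curcumin). The number above was 11, 11 and 12 after rescaling, centring and quantile normalization, beside 31.4%, 30.4% and 32.2% of all. Irbp, also called Ku70, which binds broken DNA ends, read 170 and 109 in old flies, against 60.3 and 44.7 in young flies (1.39, SE 0.17). PolZ1, the catalytic subunit of a polymerase that copies past DNA damage, read 163 and 139 in old flies, against 79.5 and 67.6 in young flies (1.04, SE 0.17). Both were at least 2-fold higher in both diets as deposited, beside 1.79% of all probe sets, and 1 member was after each of the 3 scalings. The list median was 0.30 without the young array with curcumin. DNAlig4, the ligase that joins broken ends, and mre11, of a break-sensing complex, had 0.81 and 0.80 (SE 0.17 and 0.19).

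Protein quality control showed little. Both old arrays were above both young for 10 of 26 proteasome probe sets, beside 35.8% of all, with a median of 0.13, and heat shock proteins had a median of 0.07 that turned negative on rescaling and centring. Hsc70-3, the chaperone of the endoplasmic reticulum, had 0.50 (SE 0.17). Autophagy genes had 9 of 22 above and 2 below, beside 35.8% and 25.3% of all, with a median of 0.16 (0.33 without the old array with curcumin). ref(2)P, the adaptor that carries ubiquitinated cargo to autophagy, read 4213 and 2949 in old flies, against 2353 and 1686 in young flies (0.82, SE 0.17). It was the highest of that list by the smaller difference. Vacuolar proton pump genes had 18 of 30 below and 4 above, beside 25.3% and 35.8%, with a median of -0.20.

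Neuronal and eye genes are given beside the 35.8% of all probe sets with both old arrays above and the 25.3% with both below. Of all probe sets 1.12% were at least 2-fold lower in both diets. Synapse genes had a median of -0.16 with 5 of 30 above and 10 below, phototransduction and lens genes -0.10 with 9 of 26 above and 11 below (retinin and ninaD at least 2-fold lower in both diets), and clock genes 0.20 with 7 of 13 above and 2 below. cpx, complexin, which controls vesicle release, had 0.87 in one probe set and -0.58 in another. Neuropeptide precursors had 10 of 20 above and 3 below, with a median of 0.20. nAChRbeta3 was the only nicotinic receptor probe set of 7 with a positive mean difference.

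Male reproductive genes were lower mainly without curcumin. Accessory gland and seminal fluid genes had a median of -0.96 without and 0.01 with curcumin. As deposited 0 of 30 were at least 2-fold apart in both diets, beside 1.79% higher and 1.12% lower of all probe sets. After each of the 3 scalings 1 was lower by that much. The median of the mean difference was -0.44, and -0.02 without the old array lacking curcumin and -0.85 without the old array with it. lectin-46Cb, a seminal fluid gene, read 1581 and 2348 in old flies, against 999 and 721 in young flies (1.18, SE 0.30). Acp53C14c had -1.76 (SE 0.49). Testis genes had 20 of 49 below and 4 above, beside 25.3% and 35.8% of all probe sets, with a median of -0.14.

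The remaining lists were small in difference or in number. The list of beta-oxidation, which burns fatty acids, had a median of -0.04, chromatin and silencing genes 0.18, and oogenesis and early embryo genes 0.16 over the 12 of 28 probe sets tested. Genes of amino acid catabolism and of the mitotic cell cycle had medians of 0.04 and 0.03, which turned negative on rescaling and centring. Of the proteins carried over from the larva, only Lsp2, a storage protein gene also among the fat body markers, was tested, with -1.76, and the 3 lysozyme probe sets had a median of 0.20.

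**Figure D5:**
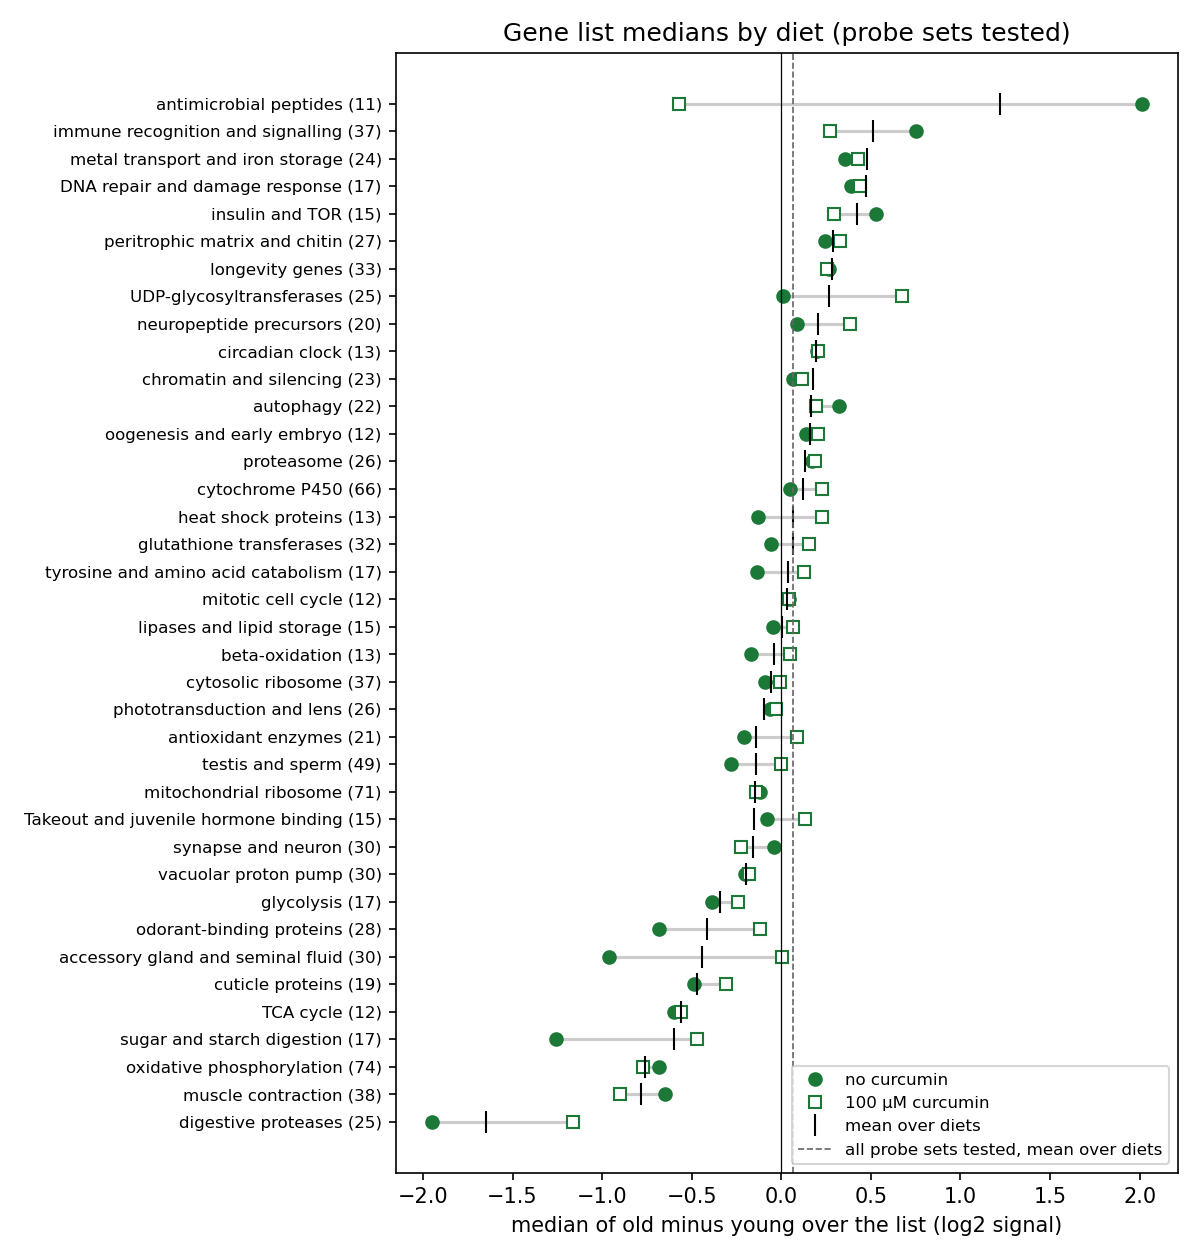
Median old minus young log2 signal of each gene list with 10 or more probe sets tested, without curcumin (filled circles), with curcumin (open squares) and for the mean over diets (ticks), with the median of all probe sets tested dashed. Protease, muscle, respiratory chain and TCA cycle lists are below 0 in both diets, while antimicrobial peptides are at 2.01 and -0.57.

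The difference also varied with signal level, chromosome and probe set. Over 4 equal groups of probe sets from the dimmest to the brightest, the share at least 2-fold higher in both diets was 0.964%, 1.36%, 2.10% and 2.72%, and the share at least 2-fold lower 0.263%, 0.877%, 1.01% and 2.32%. The floor shrinks differences of dim probe sets. The median difference was 0.15 over 1394 probe sets of the X chromosome, 0.14 over 57 of chromosome 4, and 0.04 to 0.08 on the arms of chromosomes 2 and 3. Among 395 genes with several tested probe sets, these agreed in direction for 265, or 67.1%. Of 19 such genes with a probe set at least 2-fold apart in both diets, 15 agreed in direction and 4 had every probe set past 2-fold.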

How the data were processed

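RNA of 4 whole-fly pools was measured on Affymetrix Drosophila Genome 2.0 arrays. The deposited values were taken as log2 signals per probe set, made by the authors with MAS5 per the submitters' processing notes. MAS5 makes 1 signal from each probe set; for its version and scaling target, nothing is given in the sources used here. A log2 scale was read from the values, which ranged from -4.67 to 13.4. No scanner files or detection calls were used.

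Gene names came from the platform's annotation, with symbols brought up to date through gene numbers (Release 6). Of 18769 probe sets, 13646 had 1 gene, 402 several and 4721 none, and 13543 of the 13646 matched. The 4522 below the filter were left out. Values below log2 5 (32 units) were set to it, so that a fold against such a value is a bound.

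limma 3.58.1 (R 4.3.3) fitted age and diet with lmFit and eBayes and Benjamini-Hochberg adjustment at 0.05, with 1 residual degree of freedom, which holds noise and any interaction of age and diet together. The prior SD was 0.19 with 3.16 degrees of freedom. Nothing in the labels says that pools came from separate cultures, so p-values measure only the spread between these arrays. In simulated data of 9124 probe sets for the age effect, the adjusted test called 0% of the 67 with a true 2-fold change, 82.1% of the 67 with 4-fold, 92.4% of the 66 with 8-fold, and 10 unchanged ones. The simulation had independent noise from the fitted prior, with no diet effect and no interaction of age and diet. Its shares therefore need not apply to these arrays, on which 64 probe sets had a mean difference of 4-fold or more and 0 passed.

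Gene lists were described by counts and medians, with no set test. The members, lists and tests were chosen with earlier results of these data known. Genes named were the 15 highest and 15 lowest by the smaller of the differences in the 2 diets among genes measured on all arrays, up to 5 bounds each way, up to 4 members of a list each way, all genes of the lifespan list, up to 5 each way by limma p, and up to 3 each way that were at least 2-fold apart in opposite directions in the 2 diets, of which there were 0. The probe set with the highest mean stood for a gene. Not every gene this rule names is printed, and other probe sets are given where they disagree. Alternatives were 3 scalings, other floors and filters, 1 value per gene, an intensity trend, no diet term, other fold thresholds and leaving out each array. Tables and plots were made in Python 3.11.15 (pandas 2.3.3, numpy 2.4.6, matplotlib 3.10.9).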

Additional observations from a re-analysis of the deposited data

Results flagged for a closer look

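With 1 array per age and diet, opposite directions of the age difference in the 2 diets could not be tested. They occurred for the medians of 9 of 44 lists and for 220 of 946 list genes. Those given here exceed 0.2 for each list median or 1.5-fold in each diet for a gene, limits chosen after the values were seen, and none of these differences was tested. The median of antimicrobial peptides was 2.01 without and -0.57 with curcumin, 2.58 apart. Drs, the drosomycin gene, was at 1.77 without and -0.65 with curcumin, 2.42 apart, and the stress peptide gene TotC at 0.75 and -1.02, 1.77 apart. The others ran the other way, and for them the age difference without curcumin minus that with curcumin is given. It was -2.46 for Ugt37A2, -2.30 for the metallothionein gene MtnC, -1.92 for Acp32CD, -1.77 for the glycosidase gene tobi, -1.73 for Obp56f, -1.68 for the seminal fluid gene Sfp26Ad and -1.35 for the trypsin gene etaTry.

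Probe sets without a single gene name were outside the comparisons. Of 783 with no gene name that passed the same filter, 19 (2.43%) were higher by 2-fold or more in old flies in both diets, and 4 (0.511%) were lower by that much. Of 288 that name several genes, 6 (2.08%) were higher by 2-fold or more in both diets, and 0 were lower.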

How the results depend on the processing

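The fit with diet as a block already paired the old and young array of each diet. Each combination of age and diet has 1 array, so no further pairing was possible. The limma count of 0 adjusted calls was 10 after centring on array medians, 33 with the floor and filter at log2 6 and 0 in the other settings, leaving out an array included. The 2314 probe sets with an unadjusted limma p below 0.05 became 539 to 3132 when an array was left out: 1270 without the old array lacking curcumin, 1061 without the young array lacking it and 539 without the young array with it. The 317 at least 2-fold higher on the mean became 203 to 600 (600 without the old array with curcumin, 516 without the young array lacking it, 203 without the young array with it), and the 273 lower became 111 to 676 (111 without the old array lacking curcumin, 676 without the old array with it). These fits had no diet term, and the counts in both diets could not be computed with an array left out. The 163 higher in both diets were 721 at 1.5-fold and 23 at 3-fold, and 115 to 122 under the 3 scalings. The 102 lower were 377 at 1.5-fold and 41 at 3-fold, and 127 to 133. Of 183 genes followed, 6 turned sign. Atg8a was 0.091 and Cat 0.18 with quantile normalization. When an array was left out, Atg8a ran from -0.098 to 0.035 (0.0096 without the old array with curcumin), Cat from -0.16 to 0.093, Gclm from -0.48 to 0.19, ND-SGDH from -0.40 to 0.050, Sirt1 from -0.11 to 0.014 and sun from -0.060 to 0.24. An adjusted limma p below 0.05 was reached by 24 of the 183 in some setting. With an array left out, the median of the list of oxidative phosphorylation ran from -0.90 to -0.58, that of muscle contraction from -1.10 to -0.48, that of digestive proteases from -2.16 to -1.07, and that of immune recognition and signalling from 0.22 to 0.87. The cause of these moves was not tested. Differences of probe sets near the floor are bounds.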

Other observations

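Several genes at least 2-fold higher in both diets lie outside the lists and were chosen after their values were seen, so they carry no test of a theme. Among genes of haemocytes and cell adhesion, the phagocytosis receptor gene eater had a bound of 1.31 and crq, a receptor for dying cells, read 651 and 495 in old flies, against 298 and 244 in young flies (1.07, SE 0.17). Pvr, the receptor for PDGF- and VEGF-like factors, read 921 and 522 in old flies, against 289 and 200 in young flies (1.53, SE 0.18), and its ligand Pvf1 had 1.45 (SE 0.17). The integrin beta subunit gene mys read 855 and 815 in old flies, against 425 and 274 in young flies, in its brighter probe set (1.29, SE 0.22).

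Genes of the secretory pathway were also among the 163. The endoplasmic reticulum stress sensors Ire1 and PEK read 273 and 258 (Ire1) and 446 and 444 (PEK) in old flies, against 128 and 99.5 (Ire1) and 189 and 153 (PEK) in young flies, with mean differences of 1.23 and 1.39 (SE 0.18 each). TRAM, a translocation protein of that membrane, had 1.79 (SE 0.22), Tango1, which exports large cargo, 1.09 (SE 0.17) and the sterol sensor SCAP 1.03 (SE 0.17). None of these genes passed the adjusted limma test.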
